A study of Bos grunniens and Bos grunniens x Bos taurus with 12 samples.

Results

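The 10 genes described here form the core of cellular oxygen sensing, and they were chosen by name as a pathway of high-altitude adaptation, with no threshold on their values. They are the HIF alpha subunits *HIF1A*, *EPAS1* and *HIF3A*, the shared beta subunit *ARNT*, the prolyl hydroxylases *EGLN1*, *EGLN2* and *EGLN3*, the ubiquitin ligase subunit *VHL*, the asparaginyl hydroxylase *HIF1AN*, and *VEGFA*, a secreted product of the pathway. All 10 symbols had 1 row each among the 20965 genes in the deposited tables, of which 13662 carried a symbol, and all 10 passed the filter on low counts in each of the 6 comparisons. Ribo-seq, which sequences the ribosome footprints (RFs) that translating ribosomes protect, was performed on whole testis from 4 groups with 3 libraries each, 1 library per animal. The groups were yaks (*Bos grunniens*) aged 6 months, labelled juvenile stage, yaks aged 18 months, labelled puberty, and yaks aged 4 years together with cattle-yaks aged 4 years, both labelled sexual maturity. Cattle-yak are hybrids whose males are sterile, here from Jersey cattle sires and Gannan yak dams, and no group received a treatment. The labels give castration as the way all testes were collected, whereas the methods give euthanasia for the 4-year-old yaks and castration for the cattle-yaks, so that collection and genotype cannot be told apart in that comparison. Footprints of both genotypes were aligned to the yak genome, so RFs from the cattle allele of a hybrid were also counted against yak sequence.

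In well-oxygenated cells the prolyl hydroxylases use molecular oxygen to hydroxylate HIF alpha subunits, *VHL* then binds the hydroxylated protein, and the alpha subunit is ubiquitinated and degraded. When oxygen falls, alpha subunits persist, pair with *ARNT* in the nucleus and activate genes for glycolysis, angiogenesis and red cell production, while *HIF1AN*, which also needs oxygen, blocks recruitment of coactivators. Because control falls mostly on protein stability, RFs report how much subunit is being synthesised and not how much is present. Variants at *EPAS1* and *EGLN1* are well known from populations that live at high altitude, and yaks are native to the plateau.

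Depth ranged from 16304058 to 17862516 counts in the 4-year-old yaks and from 38437889 to 52616039 in the cattle-yaks, with 21309151 to 37167651 in the younger yaks. Levels are given as FPKM (a count scaled by gene length and by the total count of the library), with SD over n = 3 libraries. Fold changes came from edgeR's quasi-likelihood test on counts after TMM scaling, with Benjamini-Hochberg adjustment over all genes tested. An adjusted p under 0.05 is called passing, and a differentially translated gene (DTG) also changed at least 2-fold. The scales part ways at 6 months, because the median of all genes in yak at 4 years over 6 months was 0.64 on the log2 scale when counts were scaled by library size and 0.08 with TMM, and in cattle-yak over 6 months it was 0.52 and -0.02. Library size scaling gave 6596 higher and 2493 lower DTGs in yak at 4 years against 6 months, where TMM gave 5009 and 3985, and 4867 and 1875 in cattle-yak against 6 months, where TMM gave 2823 and 3067. Between both 4-year groups the medians were -0.01 with library size scaling and -0.002 with TMM, so FPKM and fold changes can be read together there.

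Yak 18M replicate 2 stood apart from its group. The summed FPKM of 6 round spermatid markers was 1032 in that library and 1.96 and 5.87 in the other 18-month libraries, and that of 4 elongating spermatid markers was 6717 against 1.84 and 13.2. The 4-year-old yak libraries held 1711 to 2377 for the round spermatid markers and the cattle-yak libraries 3.93 to 10.7. Markers of testicular somatic cells were present throughout, with Sertoli cell sums of 608 to 7577. Most of each sum came from 1 gene, *INHA*, at 494 to 7288 FPKM, so the range is mainly that of *INHA*. In bulk tissue fewer cells of a type and less RNA per cell cannot be told apart, and the tests against 18 months are therefore given with and without that library.

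*HIF1AN*, *EGLN1* and *VHL* were among the more highly translated genes in every group, and *HIF3A* and *EGLN3* had the lowest means of the 10 genes in every group, between the 19.7th and 39.5th percentiles of all genes with RFs. Among the 19115 genes with RFs in 4-year-old yaks, whose median was 7.83 FPKM, *HIF1AN* stood at the 81st percentile, *VHL* at the 79.1st and *EGLN1* at the 69.6th and *EGLN3* at the 36.7th. In cattle-yak, *EPAS1* stood at the 85.9th percentile of 18918 genes, where in 6-month-old yaks it stood at the 43.7th of 18245. The mean FPKM was highest in cattle-yak for 5 of the 10 genes and lowest in 6-month-old yak for 5.

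**Figure D1:**
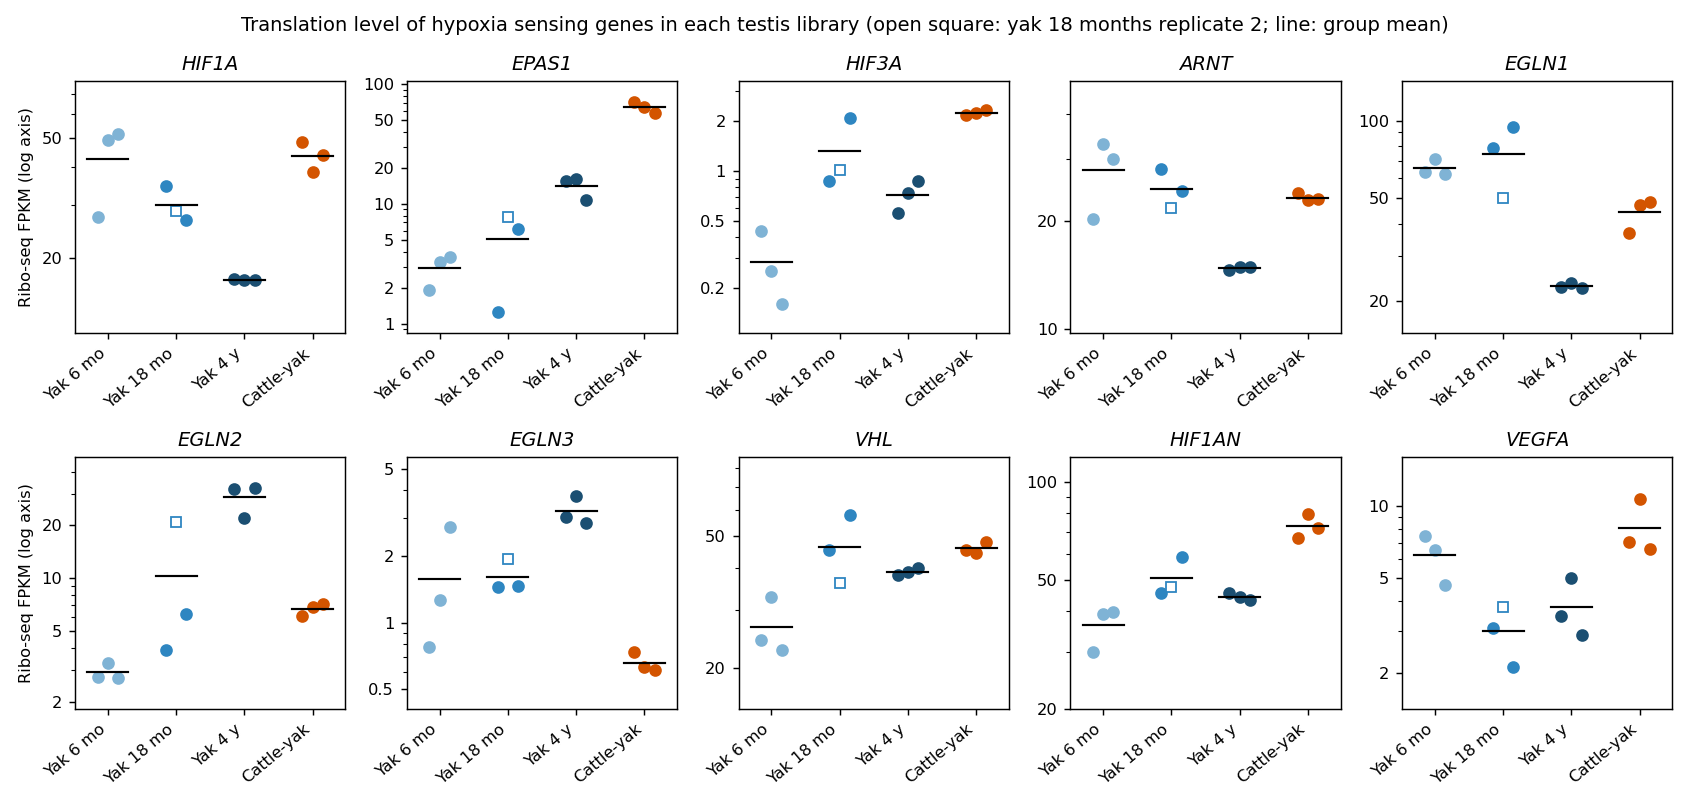
Translation level of each gene in each of the 12 libraries (vertical log axis, Ribo-seq FPKM; horizontal axis, group; each point is 1 library, the line is the group mean, and the open square is yak 18M replicate 2). *EPAS1* in the 3 cattle-yak libraries lies at 57.7 to 70.8 FPKM, above all other libraries, and *EGLN2* in the 4-year-old yak libraries lies at 22.0 to 32.4 FPKM, with the open square just below.

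The comparison of cattle-yak with yak at 4 years asked how translation in the sterile hybrid testis differs from that in the mature yak testis. All 3 alpha subunits were higher in cattle-yak, and the change was largest for *EPAS1*. Of the 10 genes, 7 were higher, 2 were lower and 1 did not pass, beside a background of 65.7% of 16498 genes passing in either direction, 31.5% higher and 34.2% lower. As DTGs, 4 were higher and 2 lower, beside 44% of all genes as DTGs, 17.1% higher and 27% lower. FPKM of the groups did not overlap for any of the 10 genes, beside 71.1% of all genes. The median log2 fold change of the 10 genes was 0.84, and that of all genes was -0.002. The 9 calls by adjusted p stood whichever of the 6 libraries was removed and under each of the 9 other analyses tried. The 2-fold threshold for DTGs was not always kept. With 1 library removed, the log2 fold change of *VEGFA* went down to 0.84 and that of *EGLN1* up to 1.06. That of *HIF3A* went down to 0.92 among the other analyses.

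*EPAS1* encodes the HIF alpha subunit best known from endothelium and from control of erythropoietin. Its level was 15.4, 16.1 and 10.7 FPKM at 4 years in yak and 70.8, 64.4 and 57.7 FPKM in cattle-yak. Each cattle-yak library was thus above each yak library, including those of the younger ages. *EPAS1* rose by 2.203 on the log2 scale (SE 0.19, 4.6-fold, edgeR adjusted p = 2.17e-05), and its change stood at the 97.5th percentile of all genes tested. The counts behind these values were 462 to 759 in yak and 5863 to 9848 in cattle-yak.

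*HIF1A* encodes the alpha subunit found in nearly all cells. It was at 17.0, 16.9 and 16.8 FPKM in yak and at 48.6, 38.5 and 43.9 FPKM in cattle-yak. The yak libraries lay within 1.01-fold of each other, and the lowest cattle-yak library was above all of them. The increase was 1.38 on the log2 scale (SE 0.13, 2.61-fold, edgeR adjusted p = 3.7e-05). *HIF3A*, an alpha subunit with several isoforms that can oppose the other alpha subunits, was at 0.56, 0.74 and 0.87 FPKM in yak and at 2.18, 2.24 and 2.31 FPKM in cattle-yak. Its increase was 1.65 on the log2 scale (SE 0.29, edgeR adjusted p = 0.00123), and it rests on 18 to 29 counts per yak library and 168 to 234 per cattle-yak library. *ARNT*, the partner that all alpha subunits need to bind DNA, was at 14.6, 14.9 and 14.9 FPKM in yak and at 24.0, 22.9 and 23.1 FPKM in cattle-yak. Its increase of 0.64 on the log2 scale (SE 0.11, edgeR adjusted p = 0.00105) was smaller than that of each alpha subunit.

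The prolyl hydroxylases moved in opposite directions. *EGLN1*, the main oxygen sensor of most tissues, was at 22.7, 23.5 and 22.6 FPKM in yak and at 36.9, 47.2 and 48.4 FPKM in cattle-yak. It rose by 0.96 on the log2 scale (SE 0.13, 1.94-fold, edgeR adjusted p = 0.000312). *EGLN2*, long noted for a high level in testis, was at 31.9, 22.0 and 32.4 FPKM in yak and at 6.11, 6.85 and 7.11 FPKM in cattle-yak. It fell by 2.10 on the log2 scale (SE 0.19, 4.27-fold, edgeR adjusted p = 2.96e-05), and its lowest yak library was above its highest cattle-yak library. *EGLN3*, a hydroxylase that is itself induced by HIF in many cells, was at 3.03, 3.78 and 2.83 FPKM in yak and at 0.74, 0.63 and 0.61 FPKM in cattle-yak. It fell by 1.78 on the log2 scale (SE 0.40, edgeR adjusted p = 0.00447). Its counts were few, 22 to 30 in yak and 13 to 29 in cattle-yak, and the gene length that counts and FPKM together imply varied from 430 to 745 bases between libraries, so its FPKM carry more error than those of the other genes.

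*VHL* differed least. It was at 38.1, 39.1 and 40.04 FPKM in yak and at 45.3, 44.4 and 47.9 FPKM in cattle-yak, a difference of 0.24 on the log2 scale (SE 0.12) that did not pass (edgeR adjusted p = 0.107). *HIF1AN*, which hydroxylates an asparagine of the alpha subunits and so limits their activity, was at 45.4, 44.1 and 43.2 FPKM in yak and at 67.3, 79.7 and 71.97 FPKM in cattle-yak. It rose by 0.73 on the log2 scale (SE 0.11, edgeR adjusted p = 0.000626). *VEGFA*, the growth factor that drives vessel growth, was at 3.46, 5 and 2.87 FPKM in yak and at 7.05, 10.7 and 6.60 FPKM in cattle-yak. Its increase was 1.05 on the log2 scale (SE 0.28, edgeR adjusted p = 0.0106), with the widest relative spread among cattle-yak libraries of the 10 genes, 1.63-fold between the highest and the lowest.

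**Figure D2:**
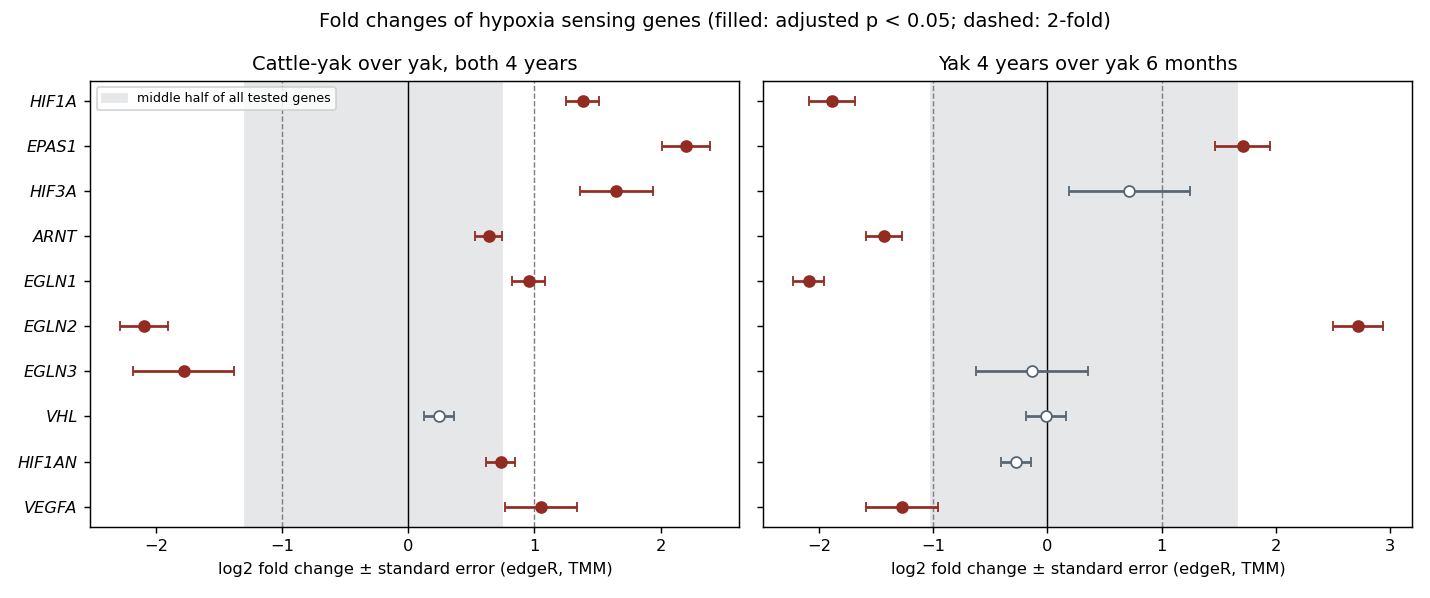
Log2 fold change with standard error (horizontal axis; edgeR, TMM) of each of the 10 genes (vertical axis) in cattle-yak over yak at 4 years (left) and in yak at 4 years over 6 months (right). Filled points pass at an adjusted p of 0.05, the shaded band runs from the lower to the upper quartile of all tested genes, and dashed lines mark 2-fold; *EPAS1* at 2.203 and *EGLN2* at -2.10 lie farthest from 0 on the left, and *EGLN2* at 2.72 and *EGLN1* at -2.09 on the right.

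Since FPKM is a level per length, the mix of related genes can be compared within a library without reference to how libraries were scaled. Among the 3 prolyl hydroxylases, *EGLN2* made up 55.4%, 44.6% and 56.0% of summed FPKM at 4 years in yak, and 14.0%, 12.5% and 12.7% in cattle-yak. At 6 months it made up 4.04% to 4.38%. *EGLN1* supplied 39.1% to 47.7% in 4-year-old yak and 84.3% to 86.3% in cattle-yak. The summed FPKM of the 3 genes was 49.2 to 57.9 in 4-year-old yak and 43.7 to 56.2 in cattle-yak, and these ranges overlapped (exact permutation test over libraries, two-sided p = 0.5, adjusted 0.522 over the 48 tests of this kind).

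Among the 3 alpha subunits, *EPAS1* made up 46.8%, 47.7% and 37.8% of summed FPKM in 4-year-old yak and 58.2%, 61.3% and 55.5% in cattle-yak. *HIF1A* was 14.2 to 15 times as abundant as *EPAS1* at 6 months, 1.05 to 1.57 times at 4 years, and 0.60 to 0.76 times in cattle-yak. The sum of alpha subunits per *ARNT* was 1.46 to 1.85 at 6 months, 1.90 to 2.26 in 4-year-old yak and 4.50 to 5.08 in cattle-yak. For these shares and ratios the cattle-yak and 4-year-old yak libraries did not overlap, and the exact permutation p was 0.1 in each case, the smallest that 3 against 3 libraries allow (adjusted p = 0.126), so none could pass.

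**Figure D3:**
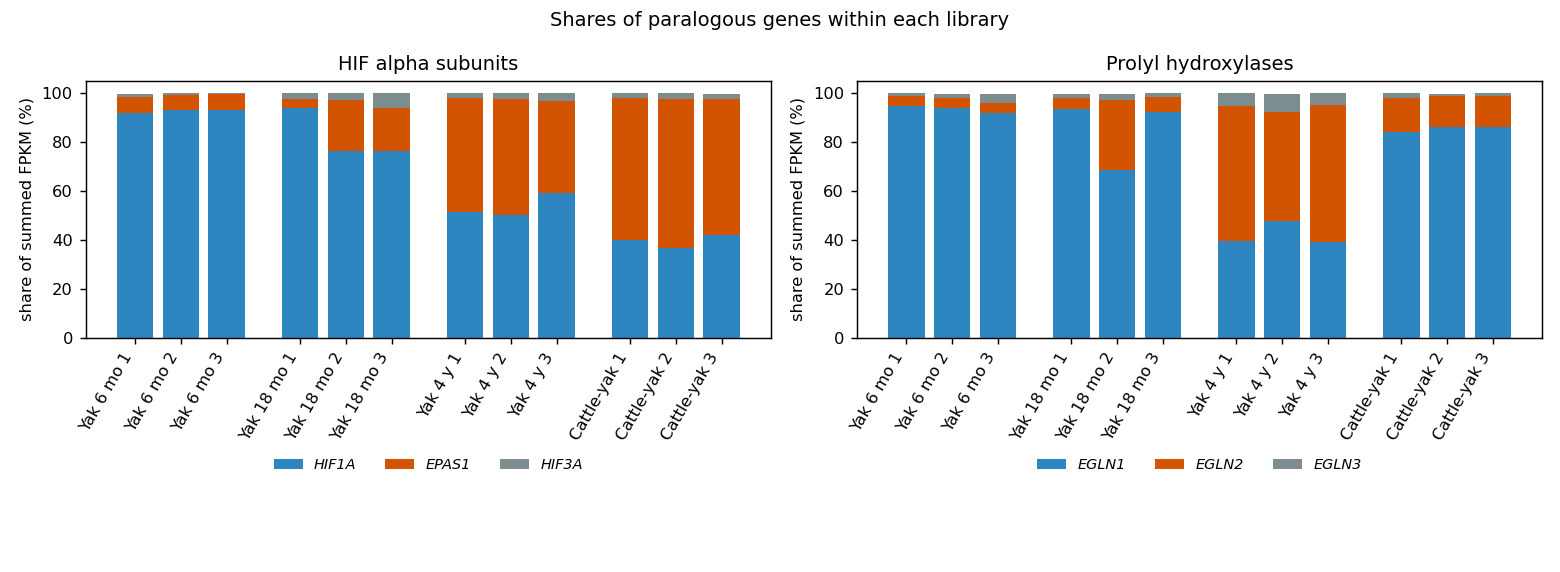
Share of summed FPKM (vertical axis, percent, from 0) taken by each HIF alpha subunit (left) and each prolyl hydroxylase (right) in each of the 12 libraries (horizontal axis). *EGLN2* reaches 44.6% to 56.0% of the hydroxylases in 4-year-old yak and 12.5% to 14.0% in cattle-yak, and it reaches 28.5% in yak 18M replicate 2.

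The comparison of yak ages asked how translation changes as the yak testis matures. From 6 months to 4 years, 2 of the 10 genes rose and 4 fell, beside 72.5% of 16133 genes passing, 37.7% higher and 34.8% lower. FPKM did not overlap between these ages for 9 of the 10, beside 76.4% of all genes. *EGLN2* rose most, from 2.77, 3.31 and 2.73 FPKM at 6 months to 22.0 to 32.4 FPKM at 4 years, a log2 fold change of 2.72 (SE 0.22, edgeR adjusted p = 5.76e-06). *EPAS1* rose from 1.92, 3.29 and 3.59 FPKM to 10.7 to 16.1 FPKM, a log2 fold change of 1.71 (SE 0.24, edgeR adjusted p = 0.000199). *EGLN1* fell the most, by 2.09 on the log2 scale (SE 0.14, edgeR adjusted p = 1.81e-06), from 63.5, 70.9 and 62.1 FPKM to 22.6 to 23.5 FPKM.

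*HIF1A* fell by 1.89 on the log2 scale (SE 0.20) from 27.3, 49.3 and 51.6 FPKM at 6 months to 16.8 to 17.0 FPKM at 4 years. *ARNT* fell by 1.43 (SE 0.16) from 20.3, 33.0 and 29.99 FPKM to 14.6 to 14.9 FPKM. *VEGFA* fell by 1.27 (SE 0.32, edgeR adjusted p = 0.0057) from 7.46, 6.56 and 4.69 FPKM to 2.87 to 5 FPKM, with overlapping groups in FPKM, and it did not pass when counts were scaled by library size (log2 fold change -0.68, adjusted p = 0.069). Thus *HIF1A* fell with age where *EPAS1* rose, and *EGLN1* fell where *EGLN2* rose, within the same libraries. *HIF3A*, *EGLN3*, *VHL* and *HIF1AN* did not pass with TMM. *HIF3A*, at 0.72 (SE 0.53) with TMM, passed in 3 of the 9 other analyses, with library size scaling (1.32, adjusted p = 0.0437) and with limma on log2(FPKM + 1) and log2(FPKM + 0.1) (0.43 and 1.15, adjusted p = 0.0219 and 0.019). For *EGLN3*, *VHL* and *HIF1AN* the sign depended on the scale: TMM gave -0.14, -0.01 and -0.28, and library size scaling gave 0.40, 0.55 and 0.29, of which that of *VHL* passed (adjusted p = 0.0261). FPKM showed the same difference of scale, with *VHL* at 22.7 to 32.7 FPKM at 6 months and 38.1 to 40.04 FPKM at 4 years. Cell type markers also moved between these ages, beside 37.7% of all genes higher and 34.8% lower. All 5 Sertoli cell markers, both Leydig cell markers and all 5 fibroblast and matrix markers fell (medians -1.925, -4.60 and -5.19 on the log2 scale), as did 6 of 9 endothelial markers (-2.19, with 1 higher) and 4 of 6 myoid markers (-0.94, with 2 higher), while all 6 round and all 4 elongating spermatid markers rose (10.6 and 12.2). Of 6 spermatocyte markers 5 rose and none fell (4.90). Spermatogonial markers had 3 higher and 2 lower of 6 (0.52), and macrophage markers 2 higher and 2 lower of 5 (0.16). The part of all these markers in the age differences of the 10 genes was not tested.

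None of the 10 genes passed between 18 and 6 months with edgeR, beside 0.0672% of 14874 genes. At an unadjusted p under 0.05 stood 4, namely *HIF1A*, *HIF3A*, *EGLN2* and *VEGFA*. The share of all genes at that unadjusted threshold is not given here, so this count has no background. DESeq2 called *VEGFA* lower, beside 14.1% of all genes passing in either direction. *VEGFA* was at 3.08, 3.79 and 2.12 FPKM at 18 months, each below all 6-month libraries, with a log2 fold change of -1.43 (SE 0.40, edgeR adjusted p = 0.1). *HIF3A* was at 0.87, 1.01 and 2.08 FPKM against 0.44, 0.25 and 0.16 FPKM at 6 months, with a log2 fold change of 1.77 (SE 0.59, edgeR adjusted p = 0.133). Without yak 18M replicate 2, none of the 10 genes passed either, beside 0.504% of all genes, with *VEGFA* at -1.59 (adjusted p = 0.1) and *HIF3A* at 1.95 (adjusted p = 0.152). Without yak 18M replicate 1, *HIF1A* passed as lower (log2 fold change -1.065, adjusted p = 0.0445).

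Between 4 years and 18 months, none of the 10 genes passed with edgeR, beside 0.0371% of 16175 genes. At an unadjusted p under 0.05 stood 3, namely *HIF1A*, *ARNT* and *EGLN1*, again without a share of all genes beside them. These are the 3 that DESeq2 called lower, beside 23.7% of all genes passing in either direction. Without yak 18M replicate 2, 9203 genes (56.2%) passed in place of 6, and 7 of the 10 genes were among them. *EGLN2* was at 3.90, 20.9 and 6.23 FPKM in 18-month replicates 1 to 3, and without replicate 2 it was higher at 4 years by 2.31 on the log2 scale (adjusted p = 0.000576). *EGLN1* was at 78.6, 50.3 and 94.8 FPKM, and without replicate 2 it was lower at 4 years by a log2 fold change of -2.14 (adjusted p = 4.94e-05). *EPAS1* was higher (1.77, adjusted p = 0.0303), and *HIF1A* (-1.11), *ARNT* (-1.03), *VHL* (-0.61) and *HIF1AN* (-0.45) were lower in that same fit. *EPAS1* was at 1.25, 7.73 and 6.23 FPKM at 18 months, so its low library was replicate 1 and not replicate 2.

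Cattle-yak were also set against the younger yaks, which asks whether the hybrid testis resembles an immature yak testis. These comparisons share the cattle-yak libraries with the one above. Genotype and age differ together in them and cannot be told apart. Against 6 months, 4 genes were higher and 3 lower, beside 57.7% of 15571 genes, 28.7% higher and 28.9% lower. *EPAS1* rose by 3.93 on the log2 scale (SE 0.21, 15.3-fold, edgeR adjusted p = 6.69e-06) and *HIF3A* by 2.40 (SE 0.44, adjusted p = 0.00204). *HIF1AN* rose by 0.48 (SE 0.13, adjusted p = 0.0121). *EGLN1* fell by 1.11 (SE 0.15, adjusted p = 0.000407). *EGLN2* at 0.65 (adjusted p = 0.0245) and *EGLN3* at -1.90 (adjusted p = 0.018) each passed in 3 of the 6 fits with 1 library removed, and *ARNT* at -0.77 (adjusted p = 0.00238) did not pass when scaled by library size (-0.25, adjusted p = 0.284). *HIF1A*, at 38.5 to 48.6 FPKM in cattle-yak and 27.3 to 51.6 FPKM at 6 months, did not pass with TMM (-0.49, adjusted p = 0.0663), and its sign turned with library size scaling (0.03). It passed as lower in 1 of the 6 fits with 1 library removed and in 1 of the 9 other analyses.

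Against 18 months, *EPAS1* alone passed, beside 6.78% of 15702 genes, and FPKM did not overlap for 7 of the 10, beside 39.1%. Its log2 fold change was 3.61 (SE 0.58, 12.2-fold, edgeR adjusted p = 0.0289), with 1.25 to 7.73 FPKM at 18 months and 57.7 to 70.8 FPKM in cattle-yak. The adjusted p was 0.0593 without yak 18M replicate 3 and 0.136, 0.131 and 0.147 without cattle-yak replicates 1, 2 and 3, while the log2 fold change stayed between 3.19 and 3.96 with any 1 library removed. Without yak 18M replicate 2, *EGLN1* passed as lower (-1.19, adjusted p = 0.011) and *VEGFA* as higher (1.41, adjusted p = 0.0419) besides *EPAS1* (3.96, adjusted p = 0.0128), beside 20.9% of all genes.

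Ordered by FPKM over the 4 groups, *EPAS1* at 4 years stood above both younger ages and below cattle-yak without overlap, while its ranges at 6 and 18 months overlapped. *HIF1A* was lowest at 4 years without overlap, and its 6-month range overlapped those of 18 months and of cattle-yak. *EGLN1* followed the same order at its low end, with 4 years lowest, cattle-yak next and both younger ages above without an order between them. *EGLN2* ran from 6 months over cattle-yak to 4 years without overlap, and only the 18-month range, which held 3.90 to 20.9 FPKM, crossed that of cattle-yak. *HIF1AN* was lowest at 6 months and highest in cattle-yak, and its ranges at 18 months and 4 years overlapped; on the TMM scale its lowest mean was at 4 years. *VHL* was lowest at 6 months, and its 18-month range covered those of 4 years and of cattle-yak.

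*EGLN2* separated the libraries as the spermatid markers did. It was at 20.9 to 32.4 FPKM in the 4 libraries with a round spermatid sum of at least 1032, which are those of the 4-year-old yaks and yak 18M replicate 2, and at 2.73 to 7.11 FPKM in the 8 libraries with a sum of at most 10.7. None of the other 9 genes was separated by these markers. The share of all genes separated in this way is not given here, so the separation cannot be called particular to *EGLN2*. *EGLN3* at 1.94 to 3.78 FPKM overlapped with 0.61 to 2.71 FPKM. *HIF1A* at 16.8 to 28.6 FPKM overlapped with 26.7 to 51.6 FPKM, and *EGLN1* at 22.6 to 50.3 FPKM overlapped with 36.9 to 94.8 FPKM. In cattle-yak over 4-year-old yak all 6 round spermatid markers were lower (median -7.35 on the log2 scale), as were all 4 elongating spermatid markers (median -9.95). The part of spermatid content in the *EGLN2* result was not tested.

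*EPAS1* was read beside markers of endothelium, the cell type in which it is best known. In cattle-yak over yak at 4 years, 4 of 9 endothelial markers were higher, 1 was lower and 4 did not pass (median 0.80 on the log2 scale), beside 31.5% of all genes higher and 34.2% lower. The summed endothelial FPKM was 23.8 to 31.5 in yak at 4 years and 31.1 to 44.7 in cattle-yak. *CDH5*, the endothelial cadherin, was at 2.86, 3.39 and 2.81 FPKM in yak and at 6.00, 5.28 and 4.70 FPKM in cattle-yak, which gave a difference of 0.83 on the log2 scale (SE 0.19, edgeR adjusted p = 0.00504). *PECAM1*, an endothelial adhesion molecule, did not pass (0.41, adjusted p = 0.281), and *VWF*, the clotting factor stored in endothelium, fell by 2.39. *EPAS1* per *CDH5* was 5.38, 4.74 and 3.82 in yak at 4 years and 11.8, 12.2 and 12.3 in cattle-yak, and the groups did not overlap. At 6 months *CDH5* was at 15.04, 8.85 and 13.09 FPKM, and *EPAS1* per *CDH5* was 0.13 to 0.37. The endothelial sum was 144 to 272 FPKM at that age, and most of it came from 1 gene, the claudin *CLDN5*, at 233.7, 127.11 and 106.5 FPKM, whereas *VWF* was lower at 6 months, at 1.82 to 2.51 FPKM, than at 4 years, at 4.36 to 6.59 FPKM.

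**Figure D4:**
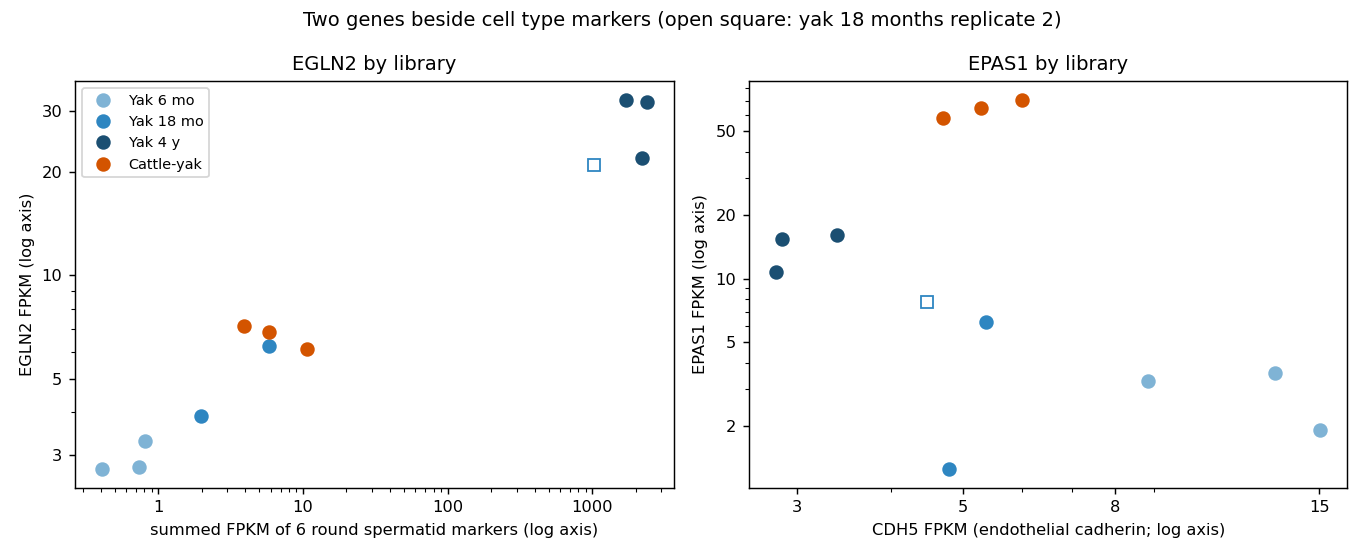
*EGLN2* against the summed FPKM of 6 round spermatid markers (left) and *EPAS1* against *CDH5* (right) in the 12 libraries, all axes logarithmic and in FPKM, coloured by group, with yak 18M replicate 2 as an open square. On the left, 4 libraries with marker sums of at least 1032 lie at 20.9 to 32.4 FPKM; on the right, the cattle-yak libraries lie at 57.7 to 70.8 FPKM of *EPAS1* with 4.70 to 6.00 FPKM of *CDH5*.

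Other somatic markers were also higher in cattle-yak than in yak at 4 years, beside 31.5% of all genes higher. All 6 peritubular myoid markers passed as higher (median log2 fold change 2.16), as did both Leydig cell markers tested (2.64), 4 of 5 Sertoli cell markers (1.47) and 4 of 5 fibroblast and matrix markers (2.111). No macrophage marker was higher and 2 of 5 were lower (median -0.11), and spermatogonial markers had a median of 1.01 with 4 of 6 higher. The myoid, Leydig, Sertoli and fibroblast lists were thus higher in the same comparison as *HIF1A*, *EPAS1*, *HIF3A*, *ARNT*, *EGLN1*, *HIF1AN* and *VEGFA*, and their part in those results was not tested. Against 6 months, where *EPAS1* rose 15.3-fold, marker lists moved both ways, beside 28.7% of all genes higher and 28.9% lower. Medians, with markers higher and lower of those tested, were -1.51 (endothelial, 0 and 6 of 9), -1.94 (Leydig, 0 and 2 of 2) and -3.37 (fibroblast, 0 and 5 of 5). They were -0.84 (Sertoli, 2 and 3 of 5), -1.54 (macrophage, 1 and 3 of 5) and 0.69 (myoid, 3 and 2 of 6). For germ cells they were 1.69 (spermatogonia, 4 and 2 of 6), 4.93 (spermatocytes, 5 and 0 of 6) and 2.89 (round spermatids, 4 and 0 of 4). The part of these lists in the *EPAS1* result was not tested.

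Genes known as HIF targets in other tissues were examined as a list, 41 names of which 35 had a row. In cattle-yak over yak at 4 years, 17 of 34 tested were higher, 6 were lower and 11 did not pass, with a median log2 fold change of 0.52. The passing share was 67.6%, beside 65.7% of all genes, of which 31.5% of all genes were higher and 34.2% lower. *PLOD2*, a lysyl hydroxylase of collagen, was at 1.06, 1.21 and 0.60 FPKM in yak and at 42.9, 24.0 and 20.1 FPKM in cattle-yak, a rise of 4.84 on the log2 scale (SE 0.36, edgeR adjusted p = 1.08e-05). *NDRG1*, a stress-responsive gene, rose by 2.88 from 22.6 to 27.9 FPKM to 154 to 207 FPKM. At the other end, *CA9*, a carbonic anhydrase that is a common marker of hypoxia, was at 36.2, 30.2 and 35.3 FPKM in yak and at 1.08, 0.67 and 0.31 FPKM in cattle-yak, and it fell by 5.57 on the log2 scale (SE 0.39, edgeR adjusted p = 8.1e-06). *CA12*, another carbonic anhydrase, fell by 3.58.

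*CA9* also reached 19.8 FPKM in yak 18M replicate 2, against 0.35 and 0.34 FPKM in the other 18-month libraries and 0.06 to 0.11 FPKM at 6 months, the same 4 libraries that were high for *EGLN2*. From 6 months to 4 years in yak, 7 of 34 targets rose and 19 fell, with a median of -0.77, beside 37.7% of all genes higher and 34.8% lower. Against 6 months, 13 were higher and 9 lower in cattle-yak (median -0.19), beside 28.7% and 28.9% of all genes. Against 18 months 6 were higher and 1 lower in cattle-yak (0.10), beside 6.78% of all genes passing, and without yak 18M replicate 2 these were 7 and 2 (-0.02), beside 20.9%. Between 18 and 6 months no target passed with edgeR (median -0.26), beside 0.0672% of all genes. There 12 had an unadjusted p under 0.05, a threshold for which the share of all genes is not given here. DESeq2 called 3 higher and 5 lower, beside 14.1% of all genes passing. Without replicate 2 none passed, beside 0.504% of all genes. Between 4 years and 18 months none passed with edgeR (-0.39), beside 0.0371% of all genes, with 15 at an unadjusted p under 0.05. By DESeq2 2 were higher and 7 lower, beside 23.7% of all genes passing. Without replicate 2, 6 of 33 targets were higher and 14 lower at 4 years (-0.47), beside 30.2% and 26% of all genes.

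**Figure D5:**
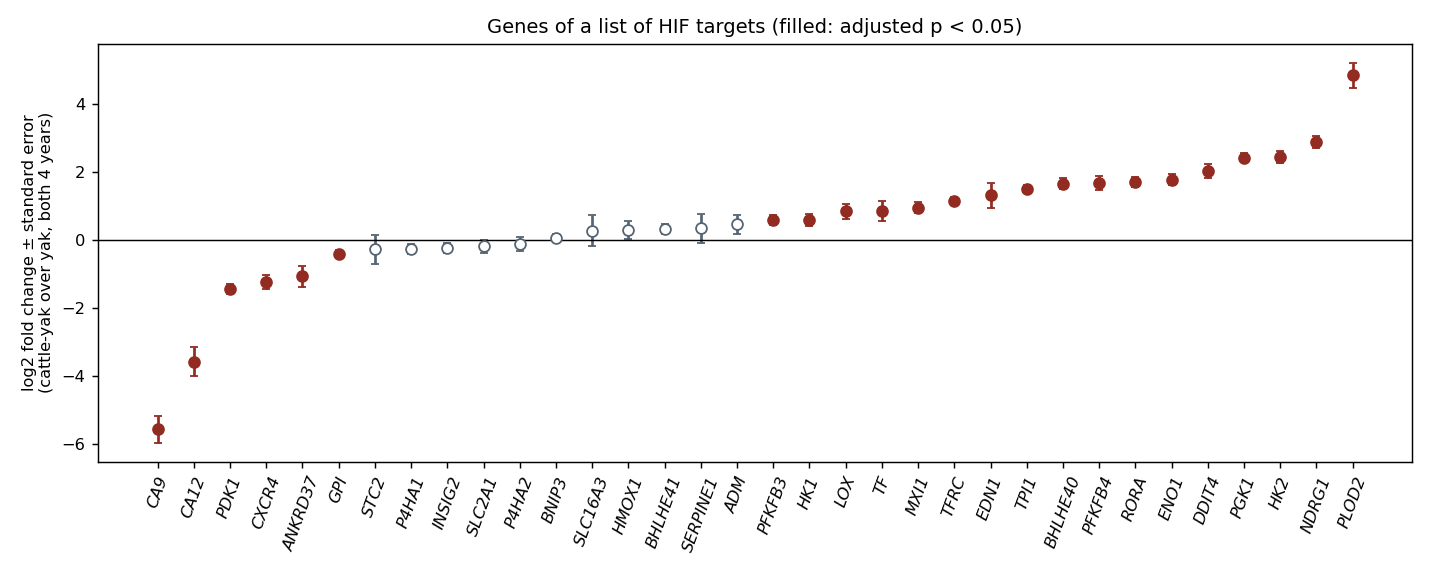
Log2 fold change with standard error (vertical axis) of the 34 tested genes from the list of HIF targets (horizontal axis, in order of fold change) in cattle-yak over yak at 4 years. Filled points pass at an adjusted p of 0.05; 17 genes up to *PLOD2* at 4.84 are higher and 6 genes down to *CA9* at -5.57 are lower.

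Among HIF partners and transcription cofactors, 8 of 15 were higher and 5 lower in cattle-yak than in yak at 4 years (median 0.55), beside 31.5% of all genes higher and 34.2% lower. *CITED2*, which competes with HIF for coactivators, rose by 2.09, from 24.2, 26.4 and 18.1 FPKM to 90.7, 111 and 90.0 FPKM. *CITED4* of the same family rose by 1.58, while *NPAS1* and *SIM2*, transcription factors of the same structural class as the alpha subunits, fell by 2.70 and 2.12 at levels of at most 1.09 FPKM in any library. Among genes of the *VHL* ligase and of HIF stability, 3 of 10 were higher and 2 lower (median 0.09), a passing share of 50% beside 65.7% of all genes. Of the 15 names of this list, called the *VHL* ligase list below, 10 had a row, and *ELOC* was the only ligase subunit among them. There *HSP90AB1*, a chaperone, rose by 1.10 and *SIAH2*, a ubiquitin ligase that targets prolyl hydroxylases, by 0.78, while *SENP1*, a SUMO protease, fell by 0.62 and *OS9* by 0.41. Of the other oxygen-dependent dioxygenases, 3 of 9 were higher and 2 lower (median 0.23), a passing share of 55.6%, with *KDM5C* at 0.96 and *TET3* at 0.88 against *KDM5B* at -1.09 and *P4HTM* at -0.73.

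VEGF ligands and receptors beside *VEGFA* had a median of 0.85 in cattle-yak over yak at 4 years, with 5 of 9 higher and 2 lower. Among all genes, 31.5% were higher and 34.2% lower in that comparison. *FLT4*, the receptor of lymphatic endothelium, rose by 1.83 and *ANGPT2* by 1.21, while *ANGPT1* fell by 1.31 and its receptor *TEK* by 0.80. From 6 months to 4 years in yak none of 10 rose and 8 fell, with a median of -2.35, beside 72.5% of all genes passing and the 6 of 9 endothelial markers that fell. In cattle-yak against 6 months 1 was higher and 8 were lower (-1.60), beside 57.7% of all genes passing, with the endothelial list at a median of -1.51. In yak at 4 years against 6 months, 3 genes of the *VHL* ligase list rose and 4 fell (-0.36), 3 cofactors rose and 6 fell (-0.23), and 3 dioxygenases rose and 5 fell (-0.90). No gene of these 4 lists passed with edgeR between 18 and 6 months or between 4 years and 18 months, beside 0.0672% and 0.0371% of all genes. At an unadjusted p under 0.05 stood 2 to 4 genes of each list in the first comparison and 5 to 7 in the second, with no share of all genes given for that threshold. DESeq2 passed 14.1% of all genes in the first comparison and 23.7% in the second. By DESeq2, the VEGF list had 4 genes lower in each, the dioxygenases 1 lower in the first and 1 higher and 3 lower in the second, the cofactors 1 higher in the first and 1 higher and 2 lower in the second, and the *VHL* ligase list 1 higher in the first and none in the second. Without yak 18M replicate 2, where 56.2% of all genes passed between 4 years and 18 months, 5 of 9 VEGF ligands and receptors were lower and none higher (median -0.93), the *VHL* ligase list had 2 higher and 5 lower, the cofactors 2 higher and 6 lower, and the dioxygenases 2 higher and 3 lower. Between 18 and 6 months that fit called *TEK* (-2.20, adjusted p = 0.0404) lower and no other gene of the 4 lists. Against 18 months 2 genes of the 4 lists passed in cattle-yak, both lower, beside 6.78% of all genes. They were the cofactor *NPAS3* (log2 fold change -1.95, adjusted p = 0.0305) and the ligand *VEGFD* (-3.83, adjusted p = 0.0441), named here because their values were seen. Without replicate 2 they were at -2.06 (edgeR adjusted p = 0.0136) and -4.26 (edgeR adjusted p = 0.0113). The lists then held 3 cofactors, 2 VEGF ligands or receptors and 2 dioxygenases that were lower. They also held 1 gene of the *VHL* ligase list, which is not a ligase subunit, and 1 dioxygenase that were higher, beside 20.9% of all genes passing.

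Over the 12 libraries, the genes whose log2 CPM ran most like that of *EPAS1* were *SNX33* (Pearson r = 0.984), *HK2* (0.981) and *LRCH4* (0.98), among 12080 genes compared. *HK2*, a hexokinase that is also on the target list, had means of 3.60, 10.3, 18.8 and 102 FPKM at 6 months, 18 months, 4 years and in cattle-yak. For *HIF1A* they included *STX17* (0.985) and *PHF8* (0.979). For *HIF3A* they were *HELZ* (0.958), *MBNL3* (0.957) and *RAB12* (0.955), and for *VEGFA* they were *CSF2RB* (0.957), *SLC7A1* (0.935) and *UXS1* (0.92). The 12 libraries share 4 groups, so these values describe the pattern across groups and carry no test.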

How the data were processed

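Ribo-seq of whole testis from 12 animals in 4 groups was analysed. According to the methods, which describe the 4-year-old yaks and the cattle-yaks, the authors removed rRNA and other small RNA reads, kept RFs of footprint length and aligned them to the yak genome BosGru 3.0. RSEM estimated expected counts per gene over open reading frames, which the authors deposited as whole numbers, and the authors gave FPKM from the same counts. The labels list Bowtie2 and RSEM without versions for all libraries. The same library columns recur across the 3 comparison tables used, and they held identical values where 12 recurring columns were checked. The authors also deposited mean FPKM, log2 fold changes made from those means, and p-values with FDR, and none of these were used.

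Counts were tested in R 4.3.3 with edgeR 4.0.16 (filterByExpr, TMM, glmQLFit and glmQLFTest), fitting the 6 libraries of each comparison alone and adjusting over all genes tested. The standard error was the log2 fold change divided by the square root of F. The threshold was an adjusted p of 0.05, with a log2 fold change of at least 1 for DTGs. Alternatives were DESeq2 1.42.0, limma 3.58.1 on log2(FPKM + 1) and log2(FPKM + 0.1), library size, RLE and upper quartile scaling, no filter, 1 fit over all 12 libraries, a block for replicate number, and removal of any 1 library. Scripts were tested on simulated data.

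The genes and lists were chosen with earlier results of these data known. Named genes were the 10 genes, the 3 with a symbol most like HIF1A, EPAS1, HIF3A and VEGFA in log2 CPM (prior count 2; 1 of those for HIF1A is not reported here), and from each list the 2 highest and 2 lowest log2 fold changes among genes passing in cattle-yak against yak at 4 years. Ratios within libraries, and PECAM1 and CDH5 in place of the summed endothelial list, were added after the data were seen. Of the red blood cell list, 1 of 6 symbols had a row, at 0 to 0.05 FPKM, and it was not tested. Of the 6 spermatocyte markers, 1 was higher and 3 were lower in cattle-yak at 4 years (median -0.74). Chi-square per degree of freedom between replicate libraries was 26.4 to 336, above counting noise. Sequences and genome positions were not analysed here.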

Additional observations from a re-analysis of the deposited data

How the results depend on the processing

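In cattle-yak against yak at 4 years, the 9 calls and the 1 gene that did not pass (VHL) kept their side of the adjusted p threshold in all alternatives run. The other comparisons moved. Members passing higher in 18 against 6 months numbered 0, and 1 with all 12 libraries in 1 fit; members lower numbered 0, 1 with DESeq2, 2 with all 12 libraries in 1 fit, and 0 to 1 over fits that left out 1 library. In 4 years against 18 months, 0 were higher and 0 lower; 2 were higher and 3 lower with all 12 libraries, 3 were lower with DESeq2, and leaving out 1 library gave 0 to 2 higher and 0 to 5 lower. In 4 years against 6 months, 2 higher became 4 with library size scaling and 5 with limma at either pseudocount. Of all genes, 71.4% passed with library size scaling in either direction, and 73% and 72.4% with limma at 1 and 0.1. With upper quartile scaling 7 members passed in either direction in place of 6, beside 72.8% of all genes. The added member was HIF1AN, which was lower (edgeR adjusted p = 0.0326). In cattle-yak against 6 months, 3 lower became 1 with library size scaling and 1 with limma at either pseudocount. Of all genes, 61.9% passed in either direction with library size scaling, and 63.3% and 63.1% with limma at 1 and 0.1. VHL, at 0.25 with TMM (edgeR adjusted p = 0.217), passed there as higher in 3 of the 9 other analyses. Members passing in either direction numbered 7, beside 57.7% of all genes, and 5 to 8 with 1 library left out, beside 48% to 56.1%. In cattle-yak against 18 months, 1 higher became 2 with DESeq2, all 12 libraries or limma at either pseudocount, 0 with the replicate block, and 0 to 2 with 1 library left out; 0 lower became 1 with DESeq2 or all 12 libraries and 0 to 1 with 1 library left out. The number of the 10 genes with their highest mean in cattle-yak was 5 by FPKM and 3 by TMM-scaled CPM.

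Direction turned for genes that did not pass. In 18 against 6 months, EGLN1 (-0.15) became 0.20 with library size scaling and 0.14 with limma at either pseudocount, EGLN3 (-0.51) became 0.082 and 0.18 with limma at 1 and 0.1, and with 1 library left out EPAS1 ran from -0.0054 to 0.81, EGLN1 from -0.30 to 0.094 and EGLN3 from -0.79 to 0.058. In 4 years against 18 months, VEGFA ran from -0.053 to 0.37. In 4 years against 6 months, EGLN3 became 0.40 with library size scaling, 0.77 and 1.13 with limma at 1 and 0.1 (adjusted p = 0.0283 and 0.0374) and 0.011 with the replicate block, and ran from -0.41 to 0.46 with 1 library left out. VHL became 0.067 with DESeq2, 0.55 with library size scaling, 0.068 with RLE, 0.013 with all 12 libraries, 0.56 and 0.57 with limma at 1 and 0.1, and 0.0023 with the block, and ran from -0.14 to 0.12. HIF1AN became 0.29 with library size scaling, and 0.29 and 0.30 with limma. In cattle-yak against 6 months, HIF1A became 0.031 with library size scaling and 0.077 and 0.080 with limma, and VEGFA became 0.36, 0.33 and 0.37, and ran from -0.42 to 0.039. In cattle-yak against 18 months, ARNT ran from -0.40 to 0.0019 and EGLN2 from -1.01 to 0.20, and VHL became 0.0093 and 0.010 with limma. Scaling by library size moves all genes against 6 months, as given above; for the rest the cause was not tested.

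Over all genes, 10 passed between 18 and 6 months, but 2181 with DESeq2, 153 with library size scaling, 130 with upper quartile scaling, 3 with no filter, 3359 with all 12 libraries, 171 and 436 with limma, 538 with the block and 0 to 2757 with 1 library left out. Between 4 years and 18 months 6 passed, but 3886 with DESeq2, 5378 with all 12 libraries, 73 and 52 with limma, 0 with the block and 0 to 9203 with 1 library left out. In cattle-yak against 18 months 1064 passed, but 3523 with DESeq2, 3833 with all 12 libraries, 1699 and 1687 with limma, 653 with no filter, 1 with the block and 0 to 3371 with 1 library left out. Whether the replicate numbers pair the libraries cannot be settled with 3 libraries per group. The deviations of same-numbered libraries, and not their levels, correlated between -0.332 and 0.159. At most 4 of 6 libraries had deviations that correlated best with their own number. This was in cattle-yak against yak at 4 years, where these correlations were 0.0187 to 0.0501. With the block, EPAS1 in cattle-yak over 18 months did not pass (3.84, adjusted p = 0.115), nor did EGLN2 (0.65, adjusted p = 0.0672) and EGLN3 (-1.78, adjusted p = 0.0526) over 6 months. Depth limits HIF3A and EGLN3, with 10 to 234 and 13 to 62 counts per library.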
